A study of Mus musculus with 9 samples.

Results

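The genes described here encode the RIG-I-like receptors, the adaptors MAVS and STING, the kinase TBK1 and the transcription factors IRF3 and IRF5. They are *Ddx58*, *Ifih1*, *Dhx58*, *Mavs*, *Tmem173*, *Tbk1*, *Irf3* and *Irf5*, which were chosen by name for their place in cytosolic nucleic acid sensing and found by symbol in the expression tables. All 8 were present among the 24054 genes listed, and all 8 were among the 14452 that were tested, those whose counts averaged 1 or more per library. Expression was measured by mRNA sequencing in splenic type 2 dendritic cells (DCs) of C57BL/6 mice with the genotype Clec9a-Cre/Cre Rosa-tdTomato/tdTomato. In these mice the *Clec9a* promoter drives Cre, so that a cell whose progenitor or own history includes *Clec9a* expression becomes fluorescent (TOM+), and homozygous insertion of Cre leaves the mice without a functional *Clec9a* product (DNGR-1). All 3 groups share this background. Live single CD11c+ MHCII+ CD11b+ cells without autofluorescence were sorted by fluorescence into 3 groups of 3 libraries. Mice aged 8 days gave young TOM+ cDC2 and young TOM- DC2, and spleens of young mice were pooled for the sorts. Adults gave TOM+ cDC2 only in the data used here, at 9 weeks for library 91 and at 8 weeks for 92 and 95. Each library is identified by its group and a number from its deposited name (81, 91 and 92 in each young group).

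RIG-I-like receptors are RNA helicases of the cytosol. RIG-I (*Ddx58*) and MDA5 (*Ifih1*) bind viral or misplaced double-stranded RNA and pass the signal through caspase recruitment domains to MAVS on the outer membrane of mitochondria, and LGP2 (*Dhx58*), which lacks these domains, modulates both. DNA in the cytosol is sensed by cGAS (*Mb21d1* in these files), whose cyclic dinucleotide product activates STING (*Tmem173*) on the endoplasmic reticulum. Both routes meet at TBK1, which phosphorylates IRF3, and lead to transcription of type I interferon. IRF5 acts beside IRF3 in myeloid cells, chiefly in the induction of inflammatory cytokines. The 3 receptor genes are themselves induced by interferon in most cell types.

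Interferon acts on such genes through the interferon-stimulated response element (ISRE), whose core was searched here as GAAANNGAAA on either strand. RefSeq windows of GRCm38.p6, each reaching from 250 bases before a gene's start to 50 bases after it, were found for 6 of the 8 genes, those other than *Dhx58* and *Tmem173*. Within the 250 bases before the start, none of the 6 held the core, against 2.98% of all 32851 windows. Over the whole 300 bases, a search that was added after this first one gave no match, *Ddx58* and *Ifih1* held it and *Mavs*, *Tbk1*, *Irf3* and *Irf5* did not, against 3.44% of all windows. The sites of both receptor genes are shown because these genes moved together between young and adult cells. Each is written 5′ to 3′ on the strand of its gene, with the match in capitals. The 30 bases printed for *Ddx58* are chr4:40239804-40239833. The match in them is the reverse complement of the core and covers bases 3 to 12, counted from the RefSeq start of the transcript. For *Ddx58* this start differs from that of the GENCODE position given below. The bases for *Ifih1* are chr2:62646206-62646235, with a match that covers bases 33 to 42 and reads in the direction of the gene.
Ddx58: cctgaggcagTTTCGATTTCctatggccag
Ifih1: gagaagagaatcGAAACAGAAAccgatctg
The gamma-activated sequence TTCNNNGAA, present in 8.3% of all whole windows, was found in none of the 6. For comparison, windows were found for 13 of 20 interferon-stimulated effector genes, and 7 of these 13 genes held the ISRE core. So did 11 of 19 type I and III interferon genes with a window. Counted by gene, 1079 of all 27025 held it over the whole window. These are matches of letters and not measured binding, and a window without a match says only that these letters are not in it.

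Reads counted on genes numbered 12783252 to 22809401 per library. All 8 fixed cDC2 markers (*Itgax*, *Itgam*, *H2-Ab1*, *Sirpa*, *Clec4a4*, *Irf4*, *Esam* and *Cd4*) had a mean above 10 TPM (a level per transcript length and library total) in each group. Their levels differed with age, at 19, 28.4 and 80 TPM on average for *Esam*, 108, 126 and 259 TPM for *Clec4a4* and 147, 147 and 77.9 TPM for *Itgam* in young TOM+ cDC2, young TOM- DC2 and adults. The sum of the 8, mostly *H2-Ab1*, was 18200 to 18600, 17100 to 18300 and 29300 to 31300 TPM. Other marker lists also differed between groups. Monocyte markers summed to 270 to 299, 219 to 265 and 184 to 208 TPM, with *Fcgr1* below 1 TPM on average in each group, and these ranges did not overlap. The summed level of 5 listed macrophage markers was 134 to 166 TPM in young TOM+ cDC2, 212 to 264 TPM in young TOM- DC2 and 91.4 to 134 TPM in adults. ILC3 markers summed to 4.4 to 5.28, 25.4 to 34.3 and 5.7 to 7.75 TPM. Erythroid markers reached 643 TPM in 1 library of TOM- DC2, with *Klf1* below 1 TPM in each group. B cell markers summed to 61 to 70.7, 70 to 80.8 and 41.1 to 54 TPM, mostly *Cd79b*, with *Cd79a*, *Ebf1* and *Pax5* below 1 TPM on average in each group. Neutrophil, T cell and NK cell markers stayed at or below 14 TPM in sum. The part of these cells, and of the shift in cDC2 markers with age, in the differences given here was not tested, and in bulk libraries fewer cells of a type and less RNA per cell cannot be told apart.

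All 3 receptor genes were about 2-fold higher in adult TOM+ cDC2 than in either young group. *Ddx58*, on the minus strand of chromosome 4 (GRCm38, chr4:40203773-40239828), was measured at 24.2, 16 and 17.4 TPM in young TOM+ cDC2 (libraries 81, 91 and 92), at 29.2, 19.4 and 22.8 TPM in young TOM- DC2 and at 44.0, 43.8 and 40.0 TPM in adults (91, 92 and 95). Every adult library lay above every young library, and library 81 was the highest of its group in both young groups. In edgeR's quasi-likelihood test *Ddx58* was 2.42-fold higher in adult than in young TOM+ cDC2 (log2FC of young over adult -1.28 ± 0.14 SE, padj = 2.1e-05) and 2.01-fold higher than in young TOM- DC2 (-1.01 ± 0.14, padj = 0.00014). The counts behind these values were 813 to 1942 reads per library.

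*Ifih1* (chr2:62595798-62646255, minus strand) was measured at 20.9, 16.2 and 12.6 TPM in young TOM+ cDC2, at 21.0, 17.5 and 16.1 TPM in young TOM- DC2 and at 30.2, 28.4 and 33.6 TPM in adults. The young groups overlapped each other and neither overlapped the adults. *Ifih1* was 2.04-fold higher in adult than in young TOM+ cDC2 (log2FC -1.03 ± 0.14, padj = 9.2e-05) and 1.89-fold higher than in young TOM- DC2 (-0.92 ± 0.14, padj = 0.00026). *Dhx58* (chr11:100694884-100704271, minus strand) was the most abundant of the 3 receptors per length, at 46.9, 34.6 and 36.8 TPM in young TOM+ cDC2, at 51.7, 39.1 and 39.3 TPM in young TOM- DC2 and at 70.4, 71.6 and 78.7 TPM in adults. Its order of young libraries was like that of *Ddx58*, with 81 on top in each group, and all adults lay above. Among the adults, library 95 was the highest for *Dhx58* and the lowest for *Ddx58*. It was 2.04-fold higher in adult than in young TOM+ cDC2 (log2FC -1.03 ± 0.1, padj = 1.2e-05) and 1.91-fold higher than in young TOM- DC2 (-0.93 ± 0.1, padj = 3.3e-05). *Dhx58* shares 141 of its 2412 exonic bases with the antisense gene *Dhx58os*, and the counting used no strand.

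**Figure D1:**
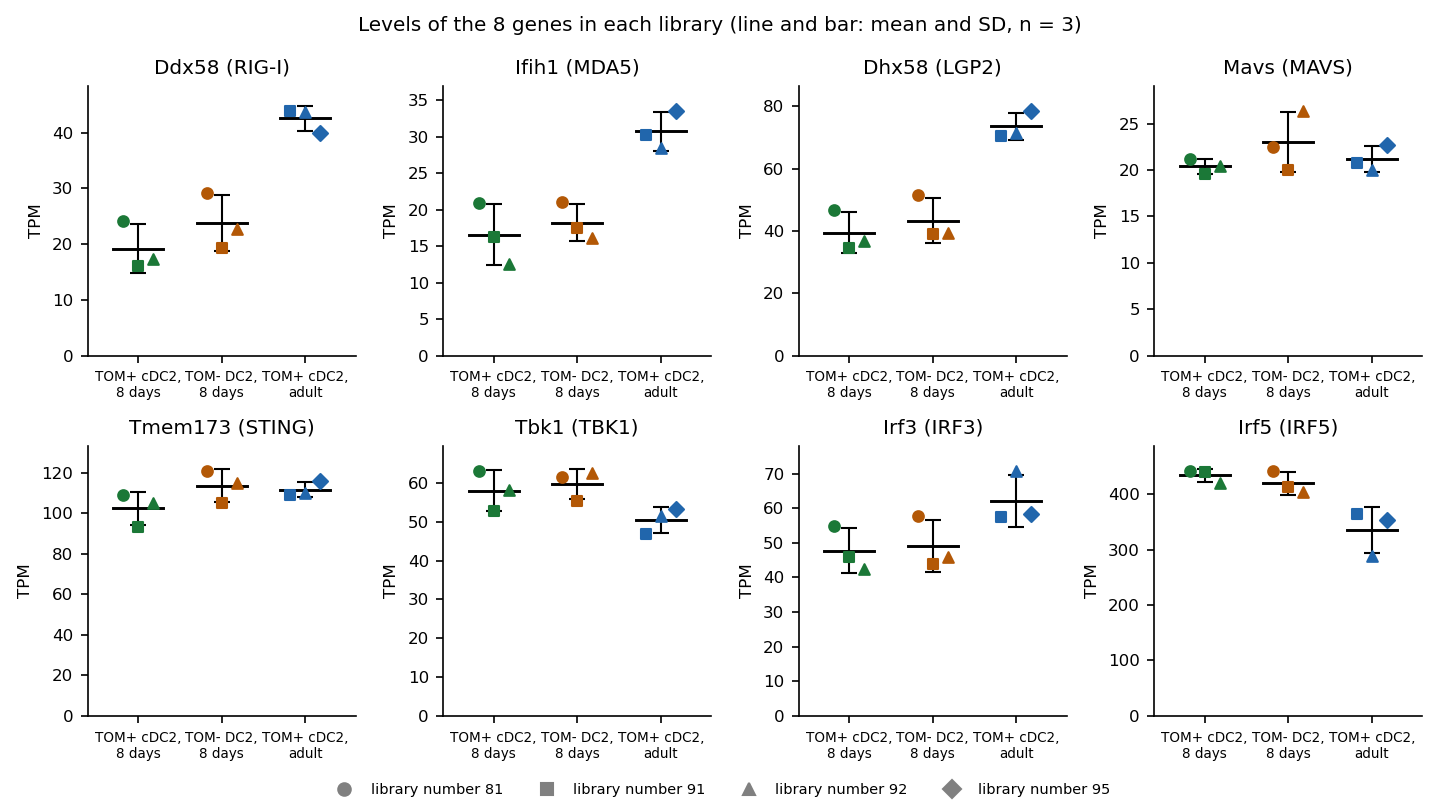
TPM (vertical axis, from 0) of each gene in each of the 9 libraries, one panel per gene, with group means and SD (n = 3) and symbols for the number in the deposited name. *Ddx58*, *Ifih1* and *Dhx58* lie higher in all 3 adult libraries than in all 6 young ones, *Irf5* lies lower in adults, and *Mavs* stays between 19.6 and 26.4 TPM.

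Differences of the adaptors and of the kinase downstream of the receptors were smaller. *Mavs* (chr2:131234063-131248025, plus strand) was measured at 21.2, 19.6 and 20.4 TPM in young TOM+ cDC2, at 22.5, 20.0 and 26.4 TPM in young TOM- DC2 and at 20.7, 20.0 and 22.7 TPM in adults. The 3 groups overlapped in TPM, while scaled counts of young TOM+ cDC2 all lay below those of adults. Its log2FC was -0.18 ± 0.11 between young and adult TOM+ cDC2 (padj = 0.19, 95% interval -0.39 to 0.03) and -0.02 ± 0.11 between young TOM- DC2 and adults (padj = 0.88, -0.23 to 0.19). Neither passed the test, and neither interval reached a log2FC of 1.

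*Tmem173* (chr18:35733679-35740554, minus strand), which encodes STING, was more abundant per length than any receptor in every group. It was measured at 109, 93.5 and 105 TPM in young TOM+ cDC2, at 121, 105 and 115 TPM in young TOM- DC2 and at 109, 110 and 116 TPM in adults. TPM of the groups overlapped, while the scaled counts of the adults all lay above those of young TOM+ cDC2. *Tmem173* passed the test there, with a log2FC of -0.26 ± 0.08 (padj = 0.019), and not against young TOM- DC2 (-0.14 ± 0.08, padj = 0.18). The first of these depends on scaling: with library totals in place of trimmed mean of M values (TMM) factors it was -0.06 (padj = 0.58), and with limma on log2(TPM + 1) -0.12 (padj = 0.24). It was also lost without library 91 of young TOM+ cDC2 (-0.21, padj = 0.093).

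*Tbk1* (chr10:121546455-121586787, minus strand) was measured at 63.1, 52.7 and 58.2 TPM in young TOM+ cDC2, at 61.4, 55.4 and 62.6 TPM in young TOM- DC2 and at 46.8, 51.5 and 53.2 TPM in adults. TPM of the young TOM- DC2 lay above the adults in all libraries, and those of young TOM+ cDC2 overlapped with them. On counts scaled by TMM the log2FC was 0.06 ± 0.08 for young TOM+ cDC2 (padj = 0.58) and 0.08 ± 0.08 for young TOM- DC2 (padj = 0.48) against adults. With library totals these values became 0.26 (padj = 0.024) and 0.3 (padj = 0.012), and it passed in no other of the 21 alternative fits.

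The transcription factors went in opposite directions. *Irf3* (chr7:44997648-45002848, plus strand), the target of TBK1, was measured at 55.0, 45.8 and 42.3 TPM in young TOM+ cDC2, at 57.7, 43.8 and 45.8 TPM in young TOM- DC2 and at 57.5, 70.8 and 58.2 TPM in adults. Library 81 of the young TOM- DC2 lay just above the lowest adult library, and the other young libraries lay below all adults. *Irf3* was 1.43-fold higher in adult than in young TOM+ cDC2 (log2FC -0.51 ± 0.11, padj = 0.0029) and 1.41-fold higher than in young TOM- DC2 (-0.5 ± 0.11, padj = 0.004). With limma on log2(TPM + 1) the first was -0.38 (padj = 0.051) and the second -0.34 (padj = 0.076).

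*Irf5* (chr6:29526625-29541871, plus strand) was the most abundant of the 8 genes per length. It was measured at 441, 440 and 420 TPM in young TOM+ cDC2, at 442, 413 and 403 TPM in young TOM- DC2 and at 364, 288 and 354 TPM in adults. All adult libraries lay below all young ones on this scale, with library 92 the lowest. On TMM-scaled counts *Irf5* was 1.19-fold higher in young than in adult TOM+ cDC2 (log2FC 0.25 ± 0.09, padj = 0.042), and the difference from young TOM- DC2 did not pass (0.17 ± 0.09, padj = 0.17), though it did with library totals (0.39, padj = 0.0048). The first was marginal. It passed in 10 of 21 alternative fits (12 other settings and 9 with a library left out), its value stayed between 0.17 and 0.45 in all of them, and it was lost when any of 7 single libraries was left out (padj up to 0.14, without adult library 92). *Irf5* shares 251 of its 2745 exonic bases with *Tnpo3* on the opposite strand.

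The order of the genes per length therefore differed between ages. In young TOM+ cDC2 the means ran from *Irf5* (434 ± 12.1 TPM, SD, n = 3) through *Tmem173* (103 ± 8.09), *Tbk1* (58.0 ± 5.2), *Irf3* (47.7 ± 6.59) and *Dhx58* (39.4 ± 6.52) to *Mavs* (20.4 ± 0.791), *Ddx58* (19.2 ± 4.4) and *Ifih1* (16.6 ± 4.17). The ranges of the last 3 overlapped, as did those of *Tbk1* with *Irf3* and of *Irf3* with *Dhx58*. In adults the order was *Irf5* (335 ± 41.4 TPM), *Tmem173* (111 ± 3.98), *Dhx58* (73.6 ± 4.48), *Irf3* (62.1 ± 7.47), *Tbk1* (50.5 ± 3.3), *Ddx58* (42.6 ± 2.26), *Ifih1* (30.7 ± 2.62) and *Mavs* (21.1 ± 1.37). There only *Dhx58* and *Irf3* overlapped among neighbours. *Mavs*, level with RIG-I and MDA5 in young TOM+ cDC2, was thus the lowest of the 8 in every adult library.

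Between TOM+ cDC2 and TOM- DC2 of the same age, none of the 8 genes passed the test at a padj under 0.05, where 1.6% of all genes tested did, and none was called at a log2FC beyond 1 as well, where 1.18% were. At an unadjusted p under 0.05 the count in edgeR was also 0, and DESeq2 and limma passed 0 of the 8 too. The largest difference was that of *Ddx58*, 1.21-fold higher in TOM- DC2 (log2FC of TOM+ over TOM- -0.27 ± 0.14, padj = 0.61, 95% interval -0.54 to 0). Differences of the other 7 lay between -0.16 (*Mavs*) and 0.09 (*Irf5*), with SE of 0.08 to 0.14 and padj of 0.75 to 1. The intervals of all 8 stopped short of a log2FC of 1 in either direction.

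Young libraries that carry the same number deviated together from their group means, with correlations over 10112 genes of 0.75 (81), 0.5 (91) and 0.52 (92), so that the numbers pair the young libraries. Within these 3 pairs, *Ddx58* was higher in TOM- DC2 in 3 of 3, by 1.21- to 1.31-fold in TPM, *Tmem173* in 3 of 3, by 1.1- to 1.12-fold, and *Dhx58* in 3 of 3, by 1.07- to 1.13-fold. *Ifih1* (1- to 1.27-fold) and *Mavs* (1.02- to 1.29-fold) were also higher in TOM- DC2 in 3 of 3, *Tbk1* and *Irf3* in 2 of 3 and *Irf5* in 1 of 3. With the number as a block for the young libraries, the log2FC of *Ddx58* was -0.28 ± 0.08 (padj = 0.098) and still did not pass, while the count of all genes passing went from 231 to 405. With the block extended to the adults, whose numbers did not pair with the young, it was -0.28 ± 0.06 (padj = 0.013), and *Ddx58* was the only 1 of the 8 to pass.

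**Figure D2:**
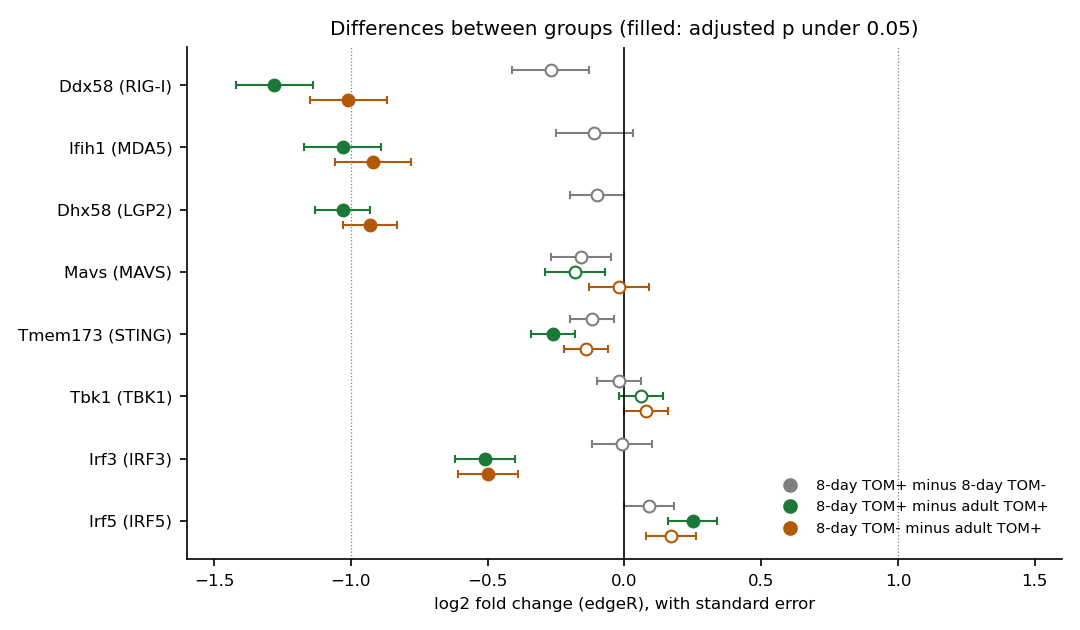
Log2 fold change (horizontal axis) of the 8 genes in the 3 comparisons, from edgeR with its standard error as bars. Filled points have a padj under 0.05, and dotted lines mark a log2FC of 1 in either direction. The 3 receptors and *Irf3* lie to the left of 0 against adults in both young groups, and all 8 points of the comparison within young mice are open.

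Of the 8 genes, 6 passed between young and adult TOM+ cDC2, against 40.6% of all genes tested. The 5 that were higher in adults were the 3 receptors, *Irf3* and *Tmem173*, in a direction that 19.5% of all genes took. At a log2FC beyond 1, which 12.8% of all genes exceeded and 6.86% in the direction of adults, 3 were called, *Ddx58*, *Ifih1* and *Dhx58*. Between young TOM- DC2 and adults, 4 passed, against 36.3% of all genes. All 4 (the receptors and *Irf3*) were higher in adults, as were 16.9% of all genes, and *Ddx58* alone was called at a log2FC beyond 1, against 11.3% of all genes and 4.78% in that direction. The second count, 4 of 8, is not far from the share over all genes. Both comparisons use the same adult libraries, and their values for a gene are therefore not independent.

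Scaling moved the balance of directions. Of all genes that passed between young and adult TOM+ cDC2, 51.9% were higher in young cells with TMM, 72.4% with library totals and 67.4% with limma on log2(TPM + 1), and the median log2FC of all genes went from 0.05 to 0.25 and 0.1. Against young TOM- DC2 these shares were 53.5%, 77.3% and 73.0%, and the medians 0.07, 0.29 and 0.14. The receptors kept their direction and passed in all 21 alternative fits of both comparisons, with log2FC of -1.48 to -1.07 for *Ddx58*, -1.19 to -0.83 for *Ifih1* and -1.13 to -0.83 for *Dhx58* between young and adult TOM+ cDC2. Against young TOM- DC2 the ranges were -1.21 to -0.78 for *Ddx58*, -0.99 to -0.7 for *Ifih1* and -1.03 to -0.71 for *Dhx58*. *Ddx58* between young and adult TOM+ cDC2 lay beyond a log2FC of 1 in all 21 fits and *Ifih1* against young TOM- DC2 in none, and the other 4 values crossed it in some.

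Ratios taken within a library do not depend on its scaling. The summed TPM of the 3 receptors was 3.68 ± 0.584 times that of *Mavs* in young TOM+ cDC2 (SD, n = 3), 3.76 ± 0.788 times in young TOM- DC2 and 6.96 ± 0.234 times in adults. Single libraries gave 4.35, 3.42 and 3.27, then 4.53, 3.8 and 2.96, and in adults 6.99, 7.19 and 6.72. Adults lay above all young libraries, and the two-sided exact permutation test gave p = 0.1 for either comparison, the smallest that 3 libraries against 3 allow (0.25 after Benjamini-Hochberg adjustment over 27 comparisons of ratios). The share of each receptor in their sum differed less. *Dhx58* made up 52.6% ± 2.21, 50.8% ± 0.574 and 50.1% ± 1.52 of it, *Ddx58* 25.4% ± 1.28, 27.8% ± 1.97 and 29% ± 2.41, and *Ifih1* 22.0% ± 2.77, 21.4% ± 1.42 and 20.9% ± 1.15, in young TOM+ cDC2, young TOM- DC2 and adults. The groups overlapped for each receptor, and exact p ranged from 0.2 to 0.9.

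On the DNA side the sensor moved against the receptors for RNA. *Mb21d1*, which encodes cGAS, was measured at 18.5, 17.6 and 16.2 TPM in young TOM+ cDC2, at 16.5, 15.5 and 13.7 TPM in young TOM- DC2 and at 8.05, 9.11 and 7.61 TPM in adults. No adult library reached a young one. *Mb21d1* was higher in young cells, with a log2FC of 0.95 ± 0.11 for TOM+ cDC2 (padj = 2.3e-05) and 0.72 ± 0.11 for TOM- DC2 (padj = 0.00023). The ratio of *Mb21d1* to *Tmem173* TPM was 0.171 ± 0.0171 in young TOM+ cDC2, 0.134 ± 0.0144 in young TOM- DC2 and 0.0742 ± 0.00866 in adults. None of the 3 groups overlapped (exact p = 0.1 in each comparison, 0.25 after adjustment, with the young libraries taken as unpaired). Between the young groups neither gene passed by itself in edgeR (*Mb21d1* log2FC 0.23, padj = 0.49, and *Tmem173* -0.12, padj = 0.75). The ratio of *Tmem173* to *Mavs* was 5.03 ± 0.218, 4.99 ± 0.543 and 5.29 ± 0.189, and its groups overlapped.

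Among the transcription factors, the ratio of *Irf5* to *Irf3* was 9.19 ± 1.02 in young TOM+ cDC2, 8.62 ± 0.9 in young TOM- DC2 and 5.49 ± 1.24 in adults. *Irf7*, the interferon-inducible relative of *Irf3*, stood at about the level of *Irf3* in young cells, with ratios of 0.931 ± 0.0172 and 0.92 ± 0.0451, and at 2.76 ± 0.309 times *Irf3* in adults. Adults were apart from both young groups for each of these ratios (exact p = 0.1).

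**Figure D3:**
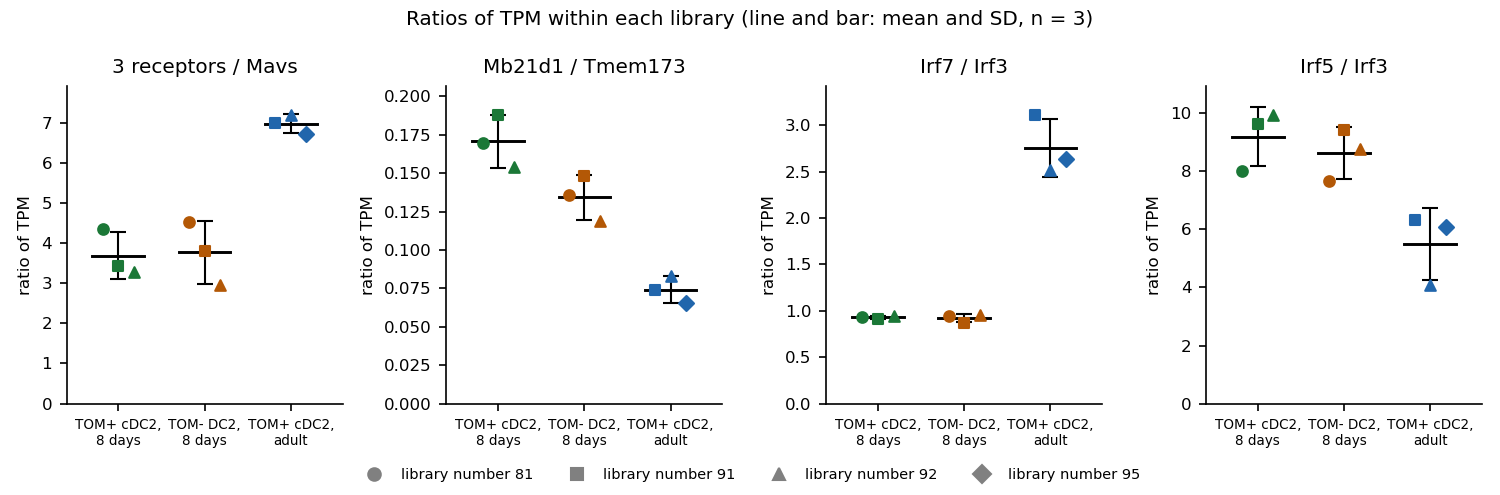
Ratios of TPM within each of the 9 libraries (vertical axes, from 0), with group means and SD (n = 3). The receptor sum over *Mavs* and *Irf7* over *Irf3* are higher in all adult libraries, and *Mb21d1* over *Tmem173* and *Irf5* over *Irf3* are lower.

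The 8 genes were set beside 82 others of the pathway in 4 lists, chosen for known role. Between young and adult TOM+ cDC2, where 40.6% of all genes passed and 19.5% were higher in adults, 34 of the 82 were higher in adults, 9 were higher in young cells and 39 did not pass. With library totals the split was 23 and 19, and with limma on log2(TPM + 1) it was 25 and 16. Against young TOM- DC2, where 36.3% of all genes passed and 16.9% were higher in adults, the counts were 33 higher in adults, 7 higher in young cells and 42 that did not pass. Between both young groups 1 of the 82 passed, where 1.6% of all genes did. This was *Irf8*, at 23.6 TPM in TOM+ cDC2 and 41.5 TPM in TOM- DC2 (log2FC -0.77, padj = 0.0027).

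Of 19 cofactors and regulators of the RNA receptors, 8 were higher in adults and 3 in young TOM+ cDC2, with a median log2FC of -0.32 where that of all genes was 0.05. In that comparison 40.6% of all genes passed and 19.5% were higher in adults. Against young TOM- DC2 the counts were the same and the median -0.29, where 36.3% of all genes passed and 16.9% were higher in adults. At a log2FC beyond 1 against young TOM+ cDC2, 2 of the 19 were called, both higher in adults. Over all genes 12.8% were called there and 6.86% in that direction. *Ddx60*, a helicase reported to assist RIG-I, was called (4.67 ± 1.42 TPM in young TOM+ cDC2, 12.4 ± 3.18 TPM in adults, log2FC -1.55, padj = 1e-04). So was *Oasl1*, an inhibitor of *Irf7* translation (5.44 ± 0.968 and 11.9 ± 2.16 TPM, log2FC -1.21, padj = 0.00023). *Trim25*, the ubiquitin ligase that activates RIG-I, was 1.78-fold higher in adults (41.6 ± 3.3 and 67.2 ± 5.61 TPM, log2FC -0.83, padj = 3.4e-05). Against young TOM- DC2, *Ddx60* was at -1.3 (padj = 0.00043), *Oasl1* at -0.87 (padj = 0.0025) and *Trim25* at -0.74 (padj = 9.8e-05).

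The MAVS signalling complex had 23 listed genes, of which 7 were higher in adults and 1 in young TOM+ cDC2, none at a log2FC beyond 1, with a median log2FC of -0.06. Passing in 8 of 23 is no more than the 40.6% of all genes, while the 7 of 23 higher in adults stand beside 19.5% of all genes. *Traf3*, the ubiquitin ligase that links MAVS to TBK1, was measured at 21.1 ± 0.591, 20.6 ± 1.38 and 19.6 ± 1.03 TPM in the 3 groups (log2FC -0.03, padj = 0.79, young against adult TOM+ cDC2). *Ikbke*, the relative of TBK1 inducible in many cells, was close to absent, with 3 to 15 reads per library and mean TPM of 0.183, 0.27 and 0.157 in the 3 groups. No difference of it passed (log2FC 0.11 ± 0.65 and 0.85 ± 0.62 against adults, padj = 0.91 and 0.31).

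Of 24 genes around cGAS and STING, 7 were higher in adults and 5 in young TOM+ cDC2, with a median log2FC of -0.11. Passing in 12 of 24 is not far from the 40.6% of all genes, and the 7 higher in adults stand beside 19.5% of all genes. At a log2FC beyond 1, 2 were called higher in adults and 1 in young TOM+ cDC2, where 12.8% of all genes were called. *Samhd1*, which hydrolyses deoxynucleotides, was higher in adults (136 and 247 TPM, log2FC -1.01, padj = 2e-06). *Rnaseh2b*, a subunit of the nuclease that removes RNA from hybrids with DNA, was higher in young TOM+ cDC2 (61.3 and 27.3 TPM, log2FC 1.05, padj = 1.1e-05). *Enpp1*, which degrades the product of cGAS, was called on few reads, 3 to 10 per young TOM+ library and 9 to 18 per adult library (log2FC -1.61 ± 0.56, padj = 0.036). It passed in 12 of 19 alternative fits, and against young TOM- DC2, with 2 to 4 reads, in 19 of 19 (-2.62 ± 0.61, padj = 0.0052).

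Interferon regulatory factors and their partners were the pathway list, of the 4, with the median farthest from 0, -0.76 against adults in young TOM+ cDC2 and -0.59 in young TOM- DC2. In each comparison 12 of 16 were higher in adults and none in young cells, where 19.5% and 16.9% of all genes were higher in adults. *Irf7* was measured at 51.1, 41.9 and 40.1 TPM in young TOM+ cDC2, at 54.2, 38.0 and 43.7 TPM in young TOM- DC2 and at 179, 179 and 154 TPM in adults. No young library came near the adults, and the log2FC was -2.08 ± 0.12 for TOM+ cDC2 (padj = 1.9e-07) and -2.08 ± 0.12 for TOM- DC2 (padj = 2.4e-07). *Irf7* is also high in plasmacytoid DCs, whose defining marker *Siglech* had mean levels of 0.417, 0.273 and 0.88 TPM, and whose 6 listed markers summed to 103 to 109, 109 to 114 and 122 to 164 TPM. Most of that sum, and of its rise in adults, was *Bst2*, with means of 81.7, 90.5 and 118 TPM. *Ccr9* was at 2.23, 1.9 and 2.49 TPM. *Tcf4* (21.9, 18.5 and 18.4 TPM) and *Cox6a2* (1.11, 0.57 and 0.48 TPM) were not higher in adults. *Irf8*, a lineage factor of DCs, was called against young TOM+ cDC2 (log2FC -1.1, padj = 1.4e-05) and differed by -0.34 (padj = 0.033) from young TOM- DC2, which passed in 11 of 21 alternative fits.

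**Figure D4:**
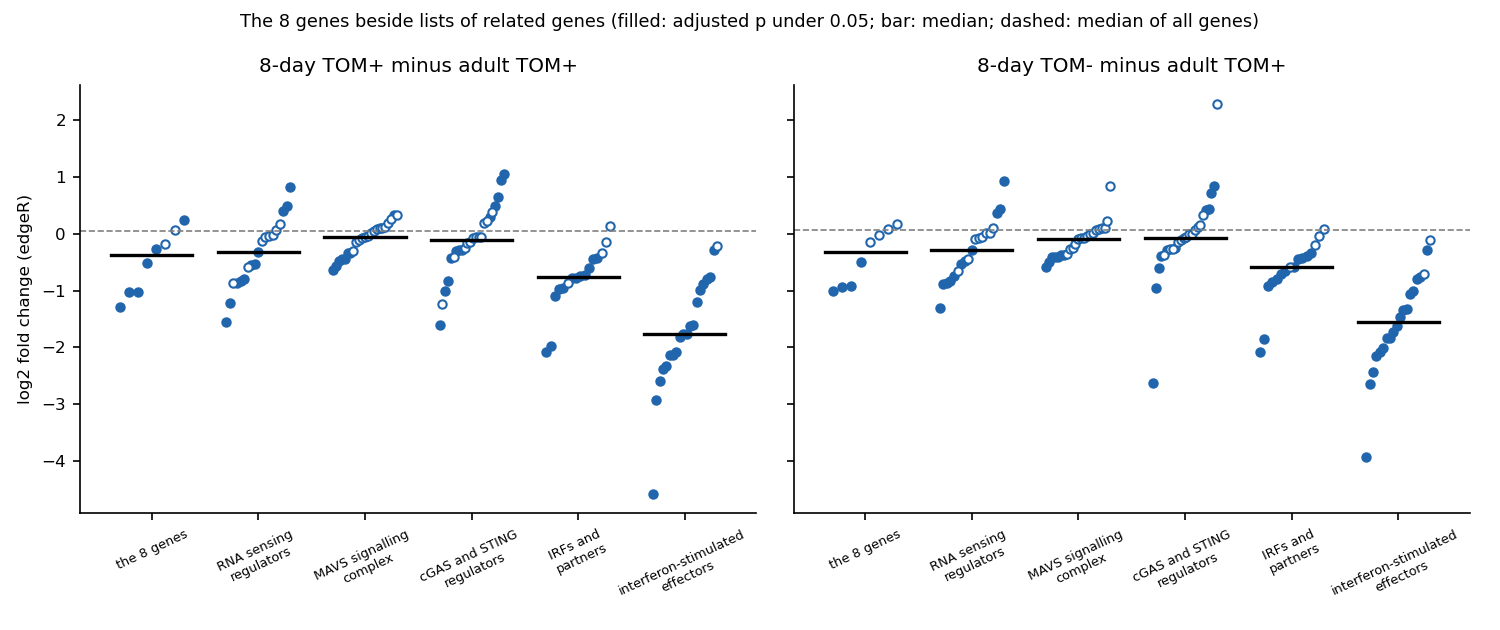
Log2 fold change from edgeR (vertical axis) of the 8 genes and of 5 lists of related genes, for young TOM+ cDC2 (left) and young TOM- DC2 (right) against adults. Points below 0 are higher in adults, filled points have a padj under 0.05, bars are medians and the dashed line is the median of all genes. The MAVS complex stays close to that line, with a median of -0.06 on the left, and interferon-stimulated effectors lie far below it, with a median of -1.77.

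The interferon genes at the end of the pathway were not expressed at a level these libraries could show. The 20 listed type I and III interferon genes had between 0 and 3 reads in sum per library, *Ifnb1* had 0 or 1, and none entered the test. A count of 3 corresponds to 0.132 to 0.235 CPM in these libraries, and this limit covers counting error only. Near-identical *Ifna* copies may be undercounted in these reads, because those with several best positions were left out. Expected counts from RSEM, which were also deposited, summed to 0 to 5 per library over the 20 genes. Interferon-stimulated effectors, a list of 20 that serves as a reference here, were higher in adults in 19 cases against young TOM+ cDC2, with a median log2FC of -1.77, and in 18 cases against young TOM- DC2, with a median of -1.55. Over all genes the shares higher in adults were 19.5% and 16.9%. *Isg15* (89.2 and 290 TPM in young and adult TOM+ cDC2) and *Usp18* (36.8 and 149 TPM) were examples of the effectors. None of the 20 passed between both young groups. The same held with the number as a block for the young libraries, where 405 of all 14452 genes passed. With the block extended to the adults, whose numbers did not pair with the young, 6 of the 20 passed, and so did 949 of all 14452 genes.

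How alike the genes were over the 9 libraries was measured as the root mean square difference of their centred log2 CPM (counts scaled by TMM to the library total). Among the 8, the smallest values were those of *Mavs* with *Tmem173* (0.1), *Ifih1* with *Dhx58* (0.12), *Mavs* with *Tbk1* (0.13), and *Ddx58* with *Dhx58* (0.14) and *Tmem173* with *Tbk1* (0.14). *Ddx58* and *Ifih1* were 0.19 apart. The receptors lay between 0.38 and 0.61 from the adaptors and the kinase, and *Irf3* was closer to *Dhx58* (0.25) than *Irf5* was (0.59). Over the 10112 tested genes whose counts averaged 50 or more, the 3 most like *Ddx58* were *Bbs9* (0.09), *Ptgs2* (0.11) and *Isg20* (0.11). Those most like *Ifih1* were *Irgm1* (0.09), *Swap70* (0.1) and *Gbp9* (0.11), and those most like *Dhx58* were *Idua* (0.06), *Abi3* (0.06) and *Adam22* (0.07). With most of the spread lying between ages, such a measure finds genes that differ by a like amount between young and adult cells, and these 9 had log2FC between -1.33 and -0.92.

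**Figure D5:**
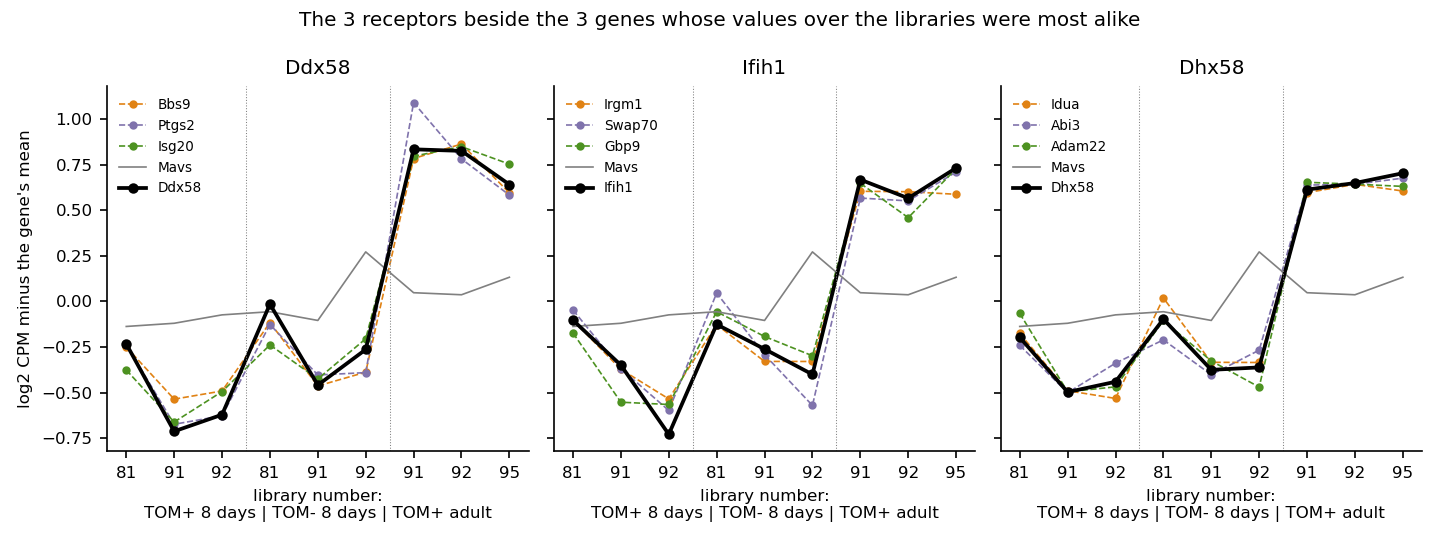
Centred log2 CPM (vertical axis) over the 9 libraries in the order of groups (horizontal axis, by library number), for each receptor in black, the 3 genes most like it as dashed lines and *Mavs* in grey. The receptors step up in all adult libraries, and library 81 is the highest young TOM+ library for each of them, while *Mavs* shows no such step.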

How the data were processed

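Poly(A) RNA of 9 sorted samples was copied by SMART-seq chemistry and sequenced as single-end reads. The authors aligned them to mm10 with STAR and deposited STAR's counts per gene without normalization, of which the unstranded column was used, since each stranded column held about 50% of stranded reads. RSEM's expected counts, TPM, FPKM and transcript lengths were also deposited by the authors. TPM, relative to each library's total and to transcript length, served for levels and ratios, expected counts, rounded, for an alternative, and FPKM were not used. STAR's 4 summary lines (26.1% to 31.6% of reads) were left out. The listed markers *Adgre1* and *Ly6g* were not analysed here.

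Counts of all 9 libraries in 3 groups, as the labels give them, were tested in R 4.3.3 with edgeR 4.0.16 (quasi-likelihood, TMM, average count of at least 1, Benjamini-Hochberg adjustment over 14452 genes). A gene passed at a padj under 0.05 and was called at a log2FC beyond 1 as well. The 95% intervals are normal intervals from the SE. Ratios were compared by exact two-sided permutation. Alternatives used DESeq2 1.42.0, limma 3.58.1, other filters and scalings, a block and each library left out. The tests were tested on simulated data. Nothing says that libraries of a group came from separate litters, so that p-values measure the spread between these samples.

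The genes and lists were chosen with earlier results of these data known. Named were all 8 genes, list genes that were called (at most 12 per comparison), *Mb21d1*, *Ikbke*, *Irf7*, *Trim25*, *Traf3* and *Ifnb1*, and the 3 genes most like each called receptor. *Irf8* (for TOM+ against TOM-), *Isg15* and *Usp18* were named after their values were seen. A called list gene and some markers are not reported here by name. Positions are those of GENCODE vM21 on GRCm38. Same-numbered libraries of young and adult mice correlated at 0 to 0.16 and were not taken as pairs.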

Additional observations from a re-analysis of the deposited data

How the results depend on the processing

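The 3 receptors passed with the same direction against adults in every alternative. Wherever a log2FC of the 8 genes turned sign, the reported value was below 0.2 in size. Between young TOM+ and adult TOM+ cDC2, *Mavs* was at 0.01 with library totals. Between young TOM- DC2 and adults, *Mavs* was at 0.11 with limma on TPM at either pseudocount or with a mean TPM of at least 1, at 0.03 with the replicate block, at 0.19 with library totals and at -0.18 to 0.05 with single libraries left out, and *Tmem173* was at 0.03 with limma on TPM and at 0.08 with library totals. Between both young groups, leaving out single libraries gave *Tbk1* -0.05 to 0.03, *Ifih1* -0.27 to 0.04 and *Irf3* -0.08 to 0.06. Between the young groups, all genes passing numbered 231, and 367 with DESeq2, 137 with limma on genes with a mean TPM of at least 1, 949 with the replicate block in all libraries, 405 with it in young libraries, and 147 to 251 without single libraries (147 without young TOM+ 92, 152 without young TOM+ 91). Without single libraries, 4 to 6 of the 8 genes passed between young and adult TOM+ cDC2 (4 without young TOM+ 91). With the block in all libraries, 1 of the 8 genes and 2 of the 82 pathway genes passed between the young groups. Across all comparisons, this block changed which of the 8 genes passed only for *Ddx58* within young mice and *Irf5* between young TOM- DC2 and adults (0.2, padj = 0.022). Pathway genes higher in young cells than in adults went from 9 to 19 with library totals and 16 with limma on log2(TPM + 1) for TOM+ cDC2, and from 7 to 17 and 15 for TOM- DC2. The cause of these shifts was not tested. Library totals and the block in young libraries were chosen after seeing the data. Low counts limit *Enpp1*, *Ikbke* and the interferon genes.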
